A study of Mus musculus with 2 samples.

Results

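Tissue kallikreins are secreted serine proteases encoded by a cluster of close paralogs on mouse chromosome 7. Their values were read in regulatory T (Treg) cells, the CD4 T cells that restrain immune responses, from a library labelled Nr4a-deficient and a wild-type library. The rule took every gene spot of both arrays whose design name was Klk1, Klk1b1, Klk1b3, Klk1b4, Klk1b5, Klk1b11, Klk1b21, Klk1b22, Klk1b24 or Klk1b27. It found all 10 genes, each with 1 probe of 60 bases, among 39348 gene probes. The Klk1b11 probe was printed in 10 spots and the others in 1 spot, 19 spots on each array. The genes were chosen for the large differences of Klk1b22, Klk1b3 and Klk1b5 in these same arrays, so the differences below are descriptions and carry no test.

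Both libraries came from sorted cells of mice 5 weeks old, and each was hybridised to 1 single-colour Agilent array. The first library carries the genotype label Nr4a-deficient, and its mice are named Nr4a-TKO in the treatment protocol; the second is wild type. The Nr4a genes encode nuclear receptors that T cell receptor signals induce. The alleles deleted, any Cre driver, the tissue, the sort markers, the strain, the sex and the number of animals per library are not given in the sources used here.

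Kallikrein biology turns on cleavage. The enzyme Klk1 releases kinin peptides from kininogens, and kinins act on vessels and pain fibres through the receptors Bdkrb1 and Bdkrb2. In mice, the Klk1b genes arose from repeated duplication, and several of their products bind or process epidermal growth factor (EGF) and other secreted proteins. Their best known source is the duct of the submandibular salivary gland.

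The signal of the 8 kallikreins that were well above background on at least 1 array was higher in the library labelled Nr4a-deficient, by between 5.59-fold and 102-fold. The other 2, Klk1b1 and Klk1b11, stayed below the call on both arrays. Signals were divided by the 75th percentile of their array, and a log2 difference has the wild-type value subtracted from that of the library labelled Nr4a-deficient. With 1 array per group there was no replicate and no test between genotypes. The ± beside a signal is the error estimate of the scanner software for that spot, which leaves out differences between animals and between RNA preparations.

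Because the paralogs are alike in sequence, the probes are shown first, set beside probes that are alike. They are as the array design gives them, with positions on mm9. In each pair the first sequence is in lower case, and capitals in the second mark the bases that differ from the first within their overlap.
The Klk1b27 probe (chr7:51311959-51312018) and the Klk1b11 probe (chr7:51255119-51255178) overlap over all 60 bases with 6 differences.
Klk1b27: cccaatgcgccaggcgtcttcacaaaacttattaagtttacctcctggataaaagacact
Klk1b11: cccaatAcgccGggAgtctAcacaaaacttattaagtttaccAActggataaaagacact
The Klk1b22 probe (chr7:51371648-51371707) and the Klk1b3 probe (chr7:51457064-51457122) overlap over 47 bases with 6 differences.
Klk1b22: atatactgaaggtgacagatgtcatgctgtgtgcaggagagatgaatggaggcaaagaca
Klk1b3: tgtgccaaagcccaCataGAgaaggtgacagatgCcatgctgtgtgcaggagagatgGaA
The Klk1 probe (chr7:51484170-51484325) and the Klk1b4 probe (chr7:51466302-51466457) overlap over 55 bases with 7 differences, and each spans 156 bases of the genome.
Klk1: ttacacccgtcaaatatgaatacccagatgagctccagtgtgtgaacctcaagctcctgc
Klk1b4: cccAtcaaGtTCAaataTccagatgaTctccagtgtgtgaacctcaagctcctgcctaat
The Klk1b24 probe (chr7:51447637-51447696) overlaps a probe of Klk1b26 (chr7:51272156-51272215), a paralog outside the 10 genes, over 55 bases with 11 differences.
Klk1b24: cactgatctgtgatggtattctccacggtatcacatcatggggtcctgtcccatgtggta
Klk1b26: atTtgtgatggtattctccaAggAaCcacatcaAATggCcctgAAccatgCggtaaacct
For Klk1b5 (chr7:51476012-51476071), the stretch of 30 bases with the most differences is set against another Klk1b26 probe (chr7:51272272-51272331) and the Klk1b16 probe (chr7:51396915-51396974). These have 3 and 5 differences from Klk1b5 there, against 5 in 54 bases and 9 in 56 over the full overlaps.
Klk1b5: taaaaatgcctgaatatcacattgtcccat
Klk1b26: GaaaaatgcctgaGtGtcacattgtcccat
Klk1b16: GaaaaatgcTtgaGtGtcacattgtTccat

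Klk1b22 and Klk1b3 had the largest differences among the members measured on both arrays. Klk1b22, an EGF-binding protein, had a signal of 13072 ± 1307 intensity units for the library labelled Nr4a-deficient, against 148.9 ± 26.6 units in the wild-type library. This was 102-fold higher after scaling (log2 difference 6.67), and only 2 of the 21065 probes well above background on both arrays had a higher difference. Klk1b3, an active protease of the submandibular gland, had 8443 ± 844 units for the library labelled Nr4a-deficient, against 243.5 ± 28.4 units in wild-type. It was 40.3-fold higher (5.33). Klk1b4, which lacks protease activity, had 1644 ± 165 units for the library labelled Nr4a-deficient and 60.0 ± 19.0 units in wild-type. The wild-type spot was not well above background, so Klk1b4 was at least 25.9-fold higher, or at least 20.0-fold on the spike-in scale, and its measured value was 12.7-fold with normexp and quantile normalization. The Klk1b22 and Klk1b3 differences lay 1.34 apart on the log2 scale, against a combined software error of 0.37, although their probes share 87.2% of 47 bases.

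Klk1, the kinin-releasing enzyme of the family, had 1767 ± 177 units for the library labelled Nr4a-deficient and 70.8 ± 18.0 units in wild-type, where it was not well above background. The difference was at least 27.8-fold on the percentile scale and at least 21.5-fold on the spike-in scale, and the measured value was 11.9-fold with normexp and quantile normalization. Klk1b5 had 4010 ± 401 units for the library labelled Nr4a-deficient, against 156.2 ± 22.7 units in wild-type, a 29.8-fold difference (4.90). Klk1 and Klk1b5 are the members nearest to each other at the end of the cluster, and both were bright for the library labelled Nr4a-deficient and dim in wild-type, where only Klk1b5 was well above background.

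Klk1b21, Klk1b24 and Klk1b27 are known as proteases of testicular Leydig cells in the mouse. Klk1b24 had 5806 ± 581 units for the library labelled Nr4a-deficient, against 356.8 ± 39.0 units in wild-type, and was 18.9-fold higher (4.24). Klk1b27 had 6185 ± 619 units for the library labelled Nr4a-deficient, against 417.8 ± 45.1 units in wild-type, and was 17.2-fold higher (4.10). These differences lay 0.14 apart, less than their combined software error of 0.30. Klk1b21 had 1607 ± 161 units for the library labelled Nr4a-deficient, against 333.8 ± 37.2 units in wild-type. Its difference of 5.59-fold (2.48) was the smallest of the 8, and 1.62 below that of Klk1b27 on the log2 scale, against a combined software error of 0.30.

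The remaining members did not separate the libraries. The Klk1b11 spots ran from 44.9 to 122.6 units with a median of 55.0 in the library labelled Nr4a-deficient, and from 38.8 to 86.8 units with a median of 56.9 in wild-type (10 spots of 1 probe on each array). The spots of the arrays overlapped, and 5 and 3 of the 10 were called well above background, not enough for a call on either array. Its log2 difference of 0.36 was -0.01 on the spike-in scale. Klk1b1 lay at 10.3 ± 10.3 units for the library labelled Nr4a-deficient and 14.9 ± 14.8 units in wild-type, both surrogate values that the scanner software writes for spots it cannot tell from background. On mm9 the Klk1b1 probe lies at chr7:51224767-51225644, a span of 878 bases for a probe of 60, and the Klk1b21 probe at chr7:51361257-51361316.

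**Figure D1:**
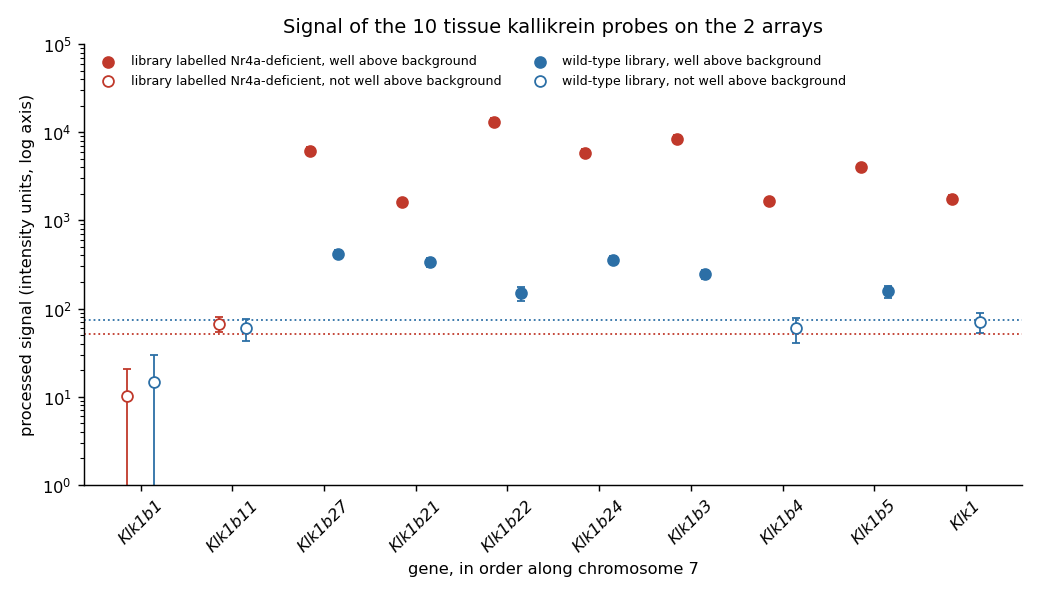
Processed signal (intensity units, log axis) of the 10 kallikrein probes in the library labelled Nr4a-deficient (red) and the wild-type library (blue). Bars are the scanner software's error, open points were not well above background, and dotted lines mark the lowest signal called well above background on each array (51.1 and 73.8 units). The 8 probes from Klk1b27 to Klk1 are brighter in the library labelled Nr4a-deficient, while Klk1b1 and Klk1b11 are near or below the lines.

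Counted by gene, 8 of 10 members were at least 2-fold higher and none lower, where 4.82% of the 18541 genes well above background on at least 1 array were higher and 5.05% lower. Of the members, 7 were at least 8-fold higher, as were 0.561% of all genes, and the same 7 were at least 16-fold higher, as were 0.14%. By measured values, 5 members passed 16-fold on the spike-in scale and 3 with normexp and quantile normalization. The 6 members measured on both arrays each passed 2-fold, where 2.49% of the 21065 probes so measured were higher and 2.9% lower. As the members were picked on this contrast, nothing is read from these shares. The median log2 difference over all 10 member probes, measured values included, was 4.55, and that over all gene probes was -0.11. Measured on both arrays, the order of differences was Klk1b22, Klk1b3, Klk1b5, Klk1b24, Klk1b27 and Klk1b21. Only Klk1b24 and Klk1b27 were neighbours in this order that lay closer than their combined software error, since Klk1b3 and Klk1b5 were 0.43 apart against an error of 0.34.

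**Figure D2:**
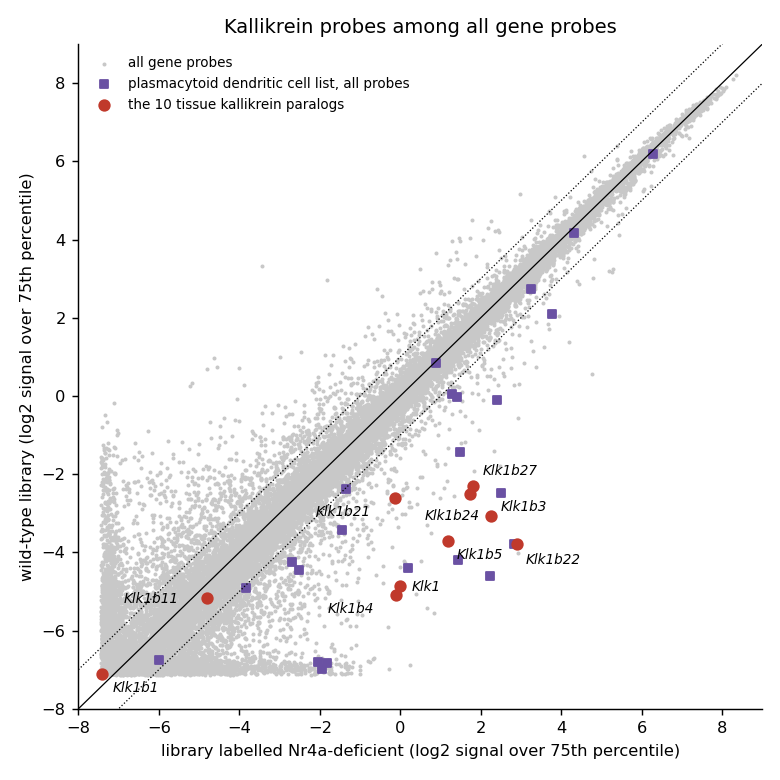
Each gene probe by its level in the library labelled Nr4a-deficient (horizontal) and in the wild-type library (vertical), both as log2 signal over the array's 75th percentile, with equality as the solid line and 2-fold as dotted lines. The 8 named kallikreins from Klk1b21 to Klk1b22 (red) lie right of the 2-fold line with differences from 2.48 to 6.67, and Klk1b1 and Klk1b11 lie between the dotted lines. Purple squares are all probes of the plasmacytoid dendritic cell list.

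Likeness between probes was described from their sequences. Probes were compared with other probes of the array, not with the transcripts of the paralogs. A probe without a listed pair may therefore still bind the transcript of another paralog. For 9 of the 10 members, all but Klk1b1, the array held another probe of a kallikrein gene with at least 70% identity over at least 25 bases. Alike probes could still differ. The Klk1b27 and Klk1b11 probes are 90% identical over 60 bases and share a run of 22 bases, yet their log2 differences were 4.10 and 0.36. The Klk1b5 probe shares 83.9% of 56 bases with the Klk1b16 probe, which stayed below the call on both arrays (surrogate values of 10.3 units for the library labelled Nr4a-deficient and 14.9 in wild-type). Klk1b24 shares 80% of 55 bases with a Klk1b26 probe at 11.3 units for the library labelled Nr4a-deficient and 16.8 in wild-type, also not well above background. Other Klk1b26 probes had 2994 and 2536 units for the library labelled Nr4a-deficient, unlike this dim one. The dim probe therefore cannot show whether the Klk1b24 probe tells the paralogs apart.

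Some other alike probes had closer differences. The Klk1b5 probe shares 90.7% of 54 bases with another Klk1b26 probe, and their log2 differences were 4.90 and 4.75. It shares 91.5% of 59 bases with a further Klk1b26 probe, under the older design name Egfbp2, which lay at 4.26. Klk1 and Klk1b4, with 87.3% of 55 bases in common and a shared run of 28, had measured values of 4.86 and 4.99. For these pairs, signal from each gene and signal of one transcript on both probes cannot be told apart. How strongly a probe binds a transcript with such differences was not measured.

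**Figure D3:**
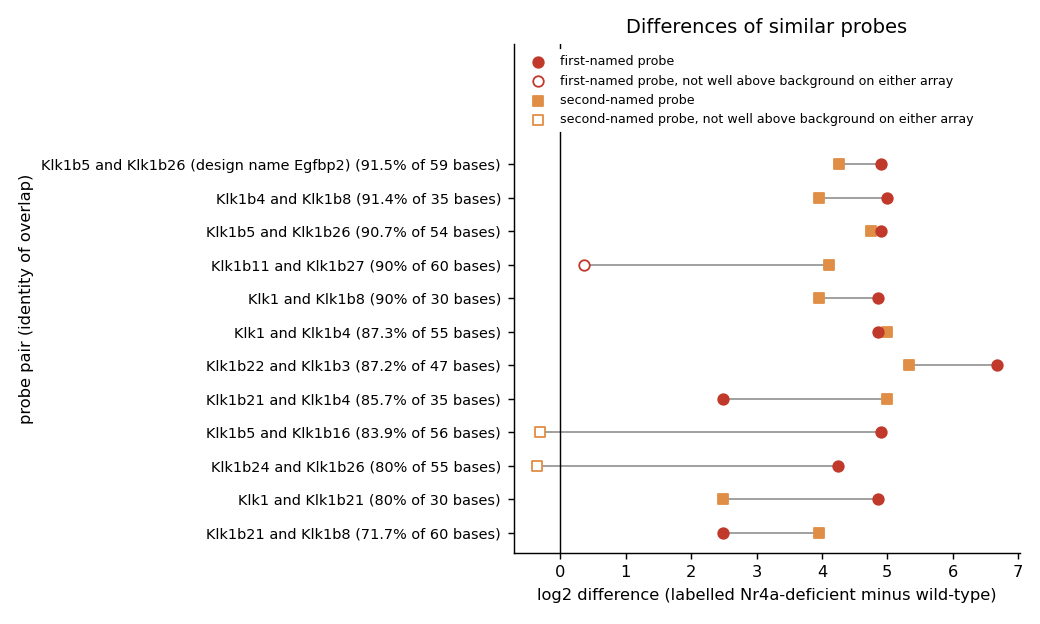
Measured log2 differences (wild-type subtracted from the library labelled Nr4a-deficient) of probe pairs with at least 70% identity over at least 25 bases, sorted by identity, with each label giving the identity and the overlap. Red circles are the first-named probe, orange squares the second, and open symbols were not well above background on either array; Klk1 and Klk1b4, bright on 1 array only, are drawn at their measured values. Klk1b11 and Klk1b27 lie far apart at 90% identity, while Klk1 and Klk1b4 nearly coincide.

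The rest of the Klk1 cluster was mixed. Of 8 other cluster genes listed, 5 were on the array and 3 were well above background, with 2 at least 2-fold higher and none lower. Klk1b8 had 2793 units for the library labelled Nr4a-deficient, against 208.3 units in wild-type (log2 difference 3.96). Its probe shares 91.4% of 35 bases with that of Klk1b4. Klk1b26, an EGF-binding protein that also cuts prorenin, had 3 probes that disagreed. Its brightest, under the older design name Egfbp2, had 2994 units for the library labelled Nr4a-deficient and 181.6 units in wild-type (4.26), its next one lay at 4.75, and the third was not well above background. Klk1b9, another EGF-binding protein, had 204.2 units for the library labelled Nr4a-deficient and 196.9 in wild-type, a log2 difference of 0.27 that turns negative when the spike-in RNAs set the scale.

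Genes next to the cluster were read in the same way. The related peptidases Klk4 to Klk15 stand next to the Klk1 cluster, and 6 of these 12 genes were well above background on at least 1 array. None passed 2-fold in either direction, but 3 of the 6 values are bounds, which set no upper limit. Klk8, a protease known from brain and skin, had 8849 units for the library labelled Nr4a-deficient and 11941 in wild-type (-0.22). Klk9 lay at 0.37, or about 0 on the spike-in scale, and Klk10 at -0.05. Among the 10 nearest genes outside the family, 5 on each side, 6 were on the array and 5 were well above background, none past 2-fold. The brightest were 2310002F09Rik (0.05), 2410002F23Rik (-0.08) and Siglece, a sialic acid receptor of myeloid cells (0.09), all negative on the spike-in scale.

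**Figure D4:**
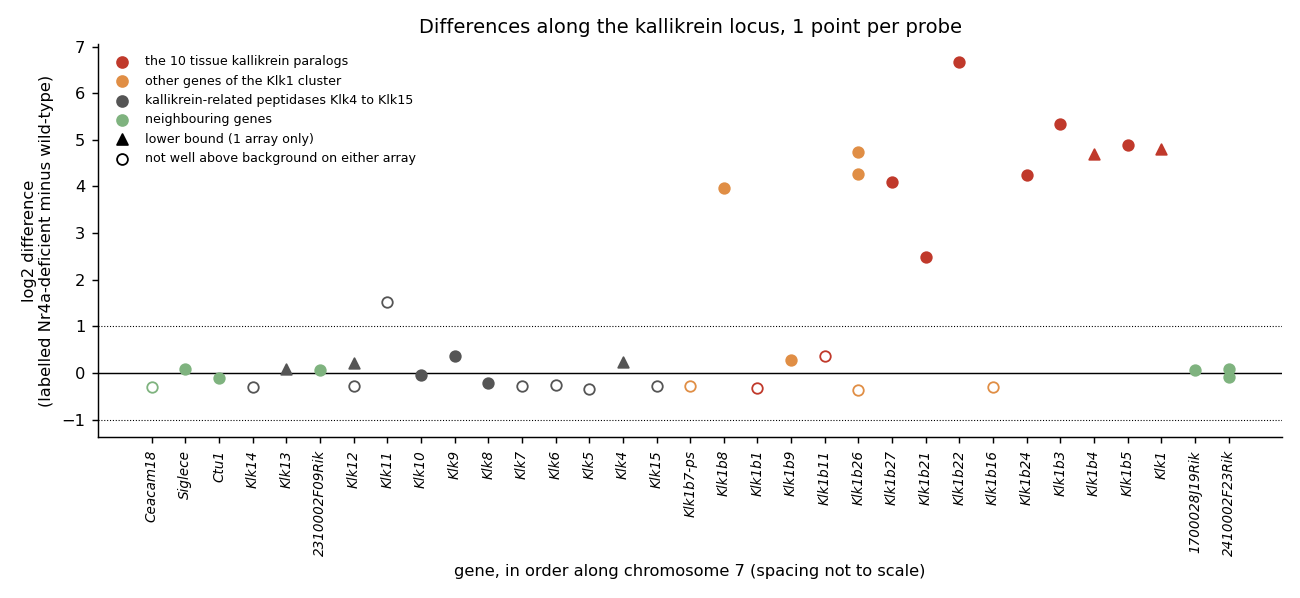
Log2 difference (wild-type subtracted from the library labelled Nr4a-deficient) of every probe in gene order along chromosome 7, with neighbouring genes in green, Klk4 to Klk15 in grey, other genes of the Klk1 cluster in orange and the 10 paralogs in red. Triangles are bounds, open circles stayed below the call on both arrays, and dotted lines mark 2-fold. Filled symbols above 2.4 belong to 8 of the 10 paralogs and to Klk1b8 and Klk1b26, while no flank probe that is well above background on both arrays, and no bound there, passes 2-fold.

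Of the listed substrates, kinin receptors and kinin-degrading peptidases, none passed 2-fold, either where well above background on both arrays or as a bound. Among the substrates, the kininogens Kng1 and Kng2 were not well above background. The growth factor Egf was at least 1.30-fold higher, with no upper limit since its probe, printed in 10 spots, was not well above background in wild-type. Of the kinin receptors, Bdkrb1 was not well above background, and Bdkrb2 had 73.1 units for the library labelled Nr4a-deficient and 19.9 in wild-type, at least 1.15-fold higher, a bound that falls under 1 on the spike-in scale. The measured Bdkrb2 value was 4.28-fold, and the size of its difference above the bound is not known. Peptidases that degrade kinins had 3 of 5 members above background with Cpm (carboxypeptidase M) at 0.48, Ece1 (endothelin-converting enzyme) at 0.39 and Ace (angiotensin-converting enzyme) at least 1.20-fold higher, a bound that also falls under 1 on the spike-in scale. None of the 3 genes of plasma kallikrein and its partners, Klkb1, F11 and F12, and none of the 4 inhibitors on the array was well above background.

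The 250 bases upstream of an annotated start of each member (RefSeq, GRCm38.p6) were compared, since 8 of the genes were higher together. For Klk1b21 this window (chr7:44102042-44102291) lies within the annotated span of the gene (chr7:44004616-44106583), not before its first base. All 10 members had an entry. Aligned to Klk1b22, the others were 76.9% to 84.2% identical over 160 to 247 aligned bases, and Klk1b1, not well above background, was among the closer ones at 81.6%. The letters TTTAAA, which read the same on both strands, were in 8 of 10 member windows and in 12.1% of 32851 windows of all genes. The member windows without them were those of Klk1 and Klk1b21, both higher in the library labelled Nr4a-deficient. The letters AAAGGTCA, the element bound by single Nr4a proteins, were in no member window on either strand and in 1.34% of all windows. The shorter AGGTCA, contained in that element, was on either strand in 9 of 10 member windows and in 14.0% of all. The member window without it was that of Klk1b11, below the call on both arrays, while that of Klk1b1, also below the call, held it. Of the other cluster windows, that of Klk1b9 (log2 difference 0.27) was 87.2% identical to Klk1b22 and held AGGTCA, as did Klk1b8 (3.96). Those of Klk1b26 (4.26 at its brightest probe) and of Klk1b16, below the call on both arrays, held no AGGTCA. The windows descend from common duplications, so a shared motif is not 10 independent events. Klk1b22 (chr7:44112423-44112672, plus strand) is shown beside Klk1b1 (chr7:43966501-43966750, plus strand), as the members with the largest difference and with surrogate values only, with AGGTCA on either strand (reading TGACCT on the other) and TTTAAA in capitals.
Klk1b22: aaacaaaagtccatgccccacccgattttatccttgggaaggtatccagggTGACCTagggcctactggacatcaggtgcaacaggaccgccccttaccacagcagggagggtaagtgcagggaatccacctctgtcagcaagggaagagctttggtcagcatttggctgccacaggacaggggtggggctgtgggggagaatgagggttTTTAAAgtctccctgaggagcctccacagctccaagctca
Klk1b1: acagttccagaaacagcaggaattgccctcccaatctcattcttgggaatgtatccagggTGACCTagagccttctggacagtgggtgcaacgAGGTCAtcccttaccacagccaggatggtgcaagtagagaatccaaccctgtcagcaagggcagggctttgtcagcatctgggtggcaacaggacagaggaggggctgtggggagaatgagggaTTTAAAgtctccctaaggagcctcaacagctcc
Both windows hold TGACCT and TTTAAA at similar places, and Klk1b1 holds a further AGGTCA. A match is a description of letters, not of binding.

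Marker lists of other cells were read on the same arrays. Plasmacytoid dendritic cells are rare cells that make type I interferon. Of their 15 listed markers, a list drawn up with earlier results of these arrays known, all 15 were well above background for the library labelled Nr4a-deficient and 14 in wild-type, with 12 at least 2-fold higher (11 on the spike-in scale), none lower and a median log2 difference of 1.98. Cox6a2 had 8217 units for the library labelled Nr4a-deficient, against 83.8 units in wild-type (6.83). The transcription factor gene Tcf4, which defines these cells, lay at 2.92, and Bst2 at 0.53. Siglech, their surface lectin, had 3 probes that disagreed. The brightest had 136839 units for the library labelled Nr4a-deficient and 147869 in wild-type (0.10, negative on the spike-in scale), and the next had 12556 units for the library labelled Nr4a-deficient and 147.1 in wild-type (6.63). The summed level of the list, as multiples of the 75th percentile, came to 149 for the library labelled Nr4a-deficient and 105 in wild-type, mostly from that brightest Siglech probe. In a bulk library, more cells of a type and more RNA per cell cannot be told apart, and the part of these cells in the kallikrein differences was not tested.

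Markers of the best known kallikrein source were mostly low. Of 15 salivary gland markers on the array, 5 were well above background for the library labelled Nr4a-deficient and 5 in wild-type. None was at least 2-fold higher and 1 was lower (Smr3a, with 109.9 units for the library labelled Nr4a-deficient and 346.1 in wild-type), or 3 on the spike-in scale. Their summed level came to 1.20 for the library labelled Nr4a-deficient and 1.37 in wild-type. Prol1, Bpifa2, Cst10 and Dcpp2, genes of salivary secretion, were among the 9 that stayed below the call on both arrays. Others were well above background on both. Ren1 had 432.3 units for the library labelled Nr4a-deficient and 820.2 in wild-type, and the brighter Prb1 probe had 353.4 and 357.8. Kidney markers, another source, had 1 of 6 above background, with none past 2-fold. The part of these tissues in the kallikrein values was not tested.

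Other lists split. B cell markers had a median of 0.83 with none of 6 detected genes past 2-fold. Macrophage and dendritic cell markers had 2 of 9 at least 2-fold higher, the dendritic cell genes Itgax (2.65) and Clec9a (2.49). Another 4 were lower, the macrophage genes C1qa, C1qb, C1qc and Adgre1, or 5 on the spike-in scale. Other dendritic cell genes of the list did not pass 2-fold. Zbtb46 was at least 1.32-fold higher, a bound that sets no upper limit. Xcr1 lay under the call on each array (12.9 units for the library labelled Nr4a-deficient and 33.2 in wild-type). Of the 6 Treg markers, all were well above background on both arrays, 5 lay within 2-fold and Il2ra was lower (-1.27). Foxp3, the lineage factor, had a dim probe with 74.5 units for the library labelled Nr4a-deficient and 85.4 in wild-type. The parts of these cells in the kallikrein values were not tested.

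**Figure D5:**
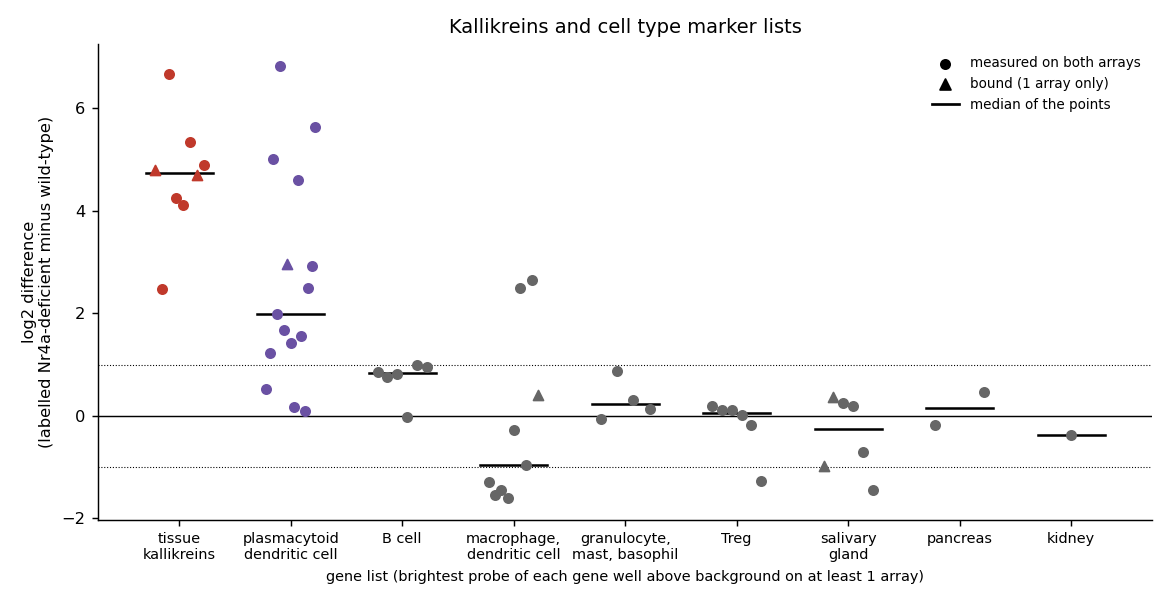
Log2 difference (wild-type subtracted from the library labelled Nr4a-deficient) of the kallikreins (red) and of cell type marker lists, 1 point per gene at its brightest probe, for genes well above background on at least 1 array. Triangles are bounds, bars are medians of the points and dotted lines mark 2-fold. The kallikreins and most of the plasmacytoid dendritic cell list lie above 1, as do 2 genes of the macrophage and dendritic cell list. No point of the B cell, granulocyte, Treg, salivary gland, pancreas or kidney lists does.

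By levels on both arrays, the genes nearest to the Klk1b22 probe among 18540 others were D13Ertd608e (log2 difference 6.92), Klk1b3 (5.33), Cox6a2 (6.83), Cd209d (5.00) and Upb1 (5.64). Their distances, in log2 units over the 2 scaled levels, were 0.22, 0.95, 1.07, 1.34 and 1.52. With 2 arrays, nearness says only that the pair of values is alike. Cox6a2, Cd209d and Upb1 also stood in the plasmacytoid dendritic cell list. Klk1b22 was picked for its difference, and that list was drawn up with earlier results of these arrays known. Nothing is read from the overlap.

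The probes of the targeted genes did not settle the genotype label. Nr4a1 had 80407 units for the library labelled Nr4a-deficient and 51441 in wild-type (0.86), and the brighter Nr4a2 probe had 3134 units for the library labelled Nr4a-deficient and 1850 in wild-type (0.98), both higher in the library labelled deficient. Nr4a3 stayed below the call on both arrays, with 23.7 units for the library labelled Nr4a-deficient and 72.0 in wild-type. Where the probes lie relative to the deleted parts is not given in the sources used here, and a probe outside them checks nothing. Each direction above therefore rests on the label.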

How the data were processed

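Total RNA of 2 sorted Treg libraries was labelled with Cy3 from 600 ng by a low-input kit, per the labels' protocols. Each deposited scanner file gives an intensity for every spot. Agilent Feature Extraction 10.7.3.1 subtracted a fitted background value from each spot, detrended the signals and put surrogate values in place of signals too dim to tell from background, per the file headers, which name no step that normalizes arrays to each other. A second deposited table, of the authors' processed values, is an intensity table too, within 1% of the scanner values for 99.5% of probes for the library labelled Nr4a-deficient and 99.4% for wild-type.

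Spots flagged as outliers were left out (173 for the library labelled Nr4a-deficient and 209 for wild-type), none of the gene spots was saturated, repeated spots were averaged and log2 signals were scaled to the 75th percentile (1762 units for the library labelled Nr4a-deficient, 2047 for wild-type). The software's call of well above background was needed in over 50% of the spots of a probe. A gene was read by its brightest such probe. Where only 1 array was above background, the fold is a bound against the higher of the dim value and the lowest signal called there. The 8 spike-in RNAs above background had a mean log2 difference of 0.37 ± 0.058 (SD, n = 8) once scaled, so log2 differences under 0.37 turn negative on their scale. Depth is not defined for arrays; their number limits the precision. Names came from RefSeq's GRCm38.p6 table by accession (27234 probes), symbol (3576) or synonym (565), and 8054 kept the design's name. The members and lists were chosen with earlier results of these data known. Named genes were all members, listed pathway and locus genes past 2-fold and up to 3 others per list by brightness, and the 5 genes nearest to Klk1b22; marker genes were named after their values were seen. The calculation of differences and bounds was tested on simulated data. Python 3.11.15, R 4.3.3 and limma 3.58.1 (normexp only) were used. One listed gene is not reported here.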

Additional observations from a re-analysis of the deposited data

How the results depend on the processing

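The 8 members at least 2-fold higher remained 8 with the median, the spike-ins or quantiles as the scale, with normexp and quantile normalization, with the deposited value table, with the median of repeated spots, with measured values in place of bounds, without a filter on dim probes and with all probes of a gene averaged, and 6 when both arrays had to be well above background. None was lower under any of these. The median log2 difference of the 10 probes (4.55) was 4.18 with the spike-ins, 3.75 with normexp and quantile normalization, whose offset of 50 compresses dim values, and 4.74 over the 8 members above background with dim values at their bounds. Across the percentile scale and the 5 other scalings and sources, the Klk1b22 difference ran from 61.98-fold to 102-fold, Klk1b3 from 30.3-fold to 40.3-fold, Klk1b5 from 18.0-fold to 29.8-fold and Klk1b21 from 4.32-fold to 5.59-fold. The bounds of Klk1 and Klk1b4 hold for the percentile scale: the measured value of Klk1 was 27.1-fold on the median scale, 27.4-fold with quantiles, 22.4-fold with the spike-ins and 11.9-fold with normexp and quantiles, and that of Klk1b4 was 24.6-fold with the spike-ins and 12.7-fold with normexp and quantiles. No paired analysis was possible because each group had 1 library, and no library could be left out. Among the 8 members with a fold or bound, the software error of the log2 difference was largest for Klk1b4, Klk1 and Klk1b22.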

Other observations

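Of the 8 listed pancreatic genes on the array, 2 were well above background and none was past 2-fold. The digestive protease genes Cpa1 and Try5 were not well above background on either array, with 11.1 and 14.7 units for the library labelled Nr4a-deficient and 74.7 and 71.7 units in wild-type, so no fold is given; both were chosen after their values were seen. Of the listed granulocyte, mast cell and basophil markers, 4 of 8 were well above background and none was past 2-fold. The protease genes Mcpt8 and Cpa3 of that list were not well above background on either array.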
